A study of Mus musculus with 24 samples.

Results

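The 10 genes described here encode proteins of blood platelets and of megakaryocytes, the bone marrow cells that shed platelets. They were taken by symbol from the 55421 genes counted in each library, with names from GENCODE mouse release 21, and the rule that lists them uses no measured value, although the list was drawn up with earlier results of these data known. They are the platelet chemokines Ppbp and Pf4, the integrin subunits Itga2b and Itgb3, the glycoprotein (GP) genes Gp1ba, Gp1bb, Gp9 and Gp5, the collagen receptor Gp6 and the granule receptor Treml1. RNA was sequenced from uninjured carotid arteries of 24 female C57BL/6 mice, with 6 libraries in each of 4 groups, and every library carried its own animal number. All mice were ovariectomized, and no group kept its ovaries, so every comparison is made on an estrogen-depleted background. OVX mice received a vehicle (labelled placebo), E2 mice estradiol, E4 mice estetrol and TAM mice tamoxifen. According to the study's methods, E2 and E4 were released from subcutaneous cholesterol pellets, the amount in the pellet differed between them, and vehicle pellets held cholesterol alone. Estetrol is a natural estrogen that carries further hydroxyl groups compared with estradiol, and tamoxifen is a synthetic, nonsteroidal modulator of the estrogen receptor whose dose is not given in the sources used here. The labels give an age of 9 weeks and 3 weeks of treatment, whereas the methods give 2 weeks. The titles of the E4 libraries name E4 while their treatment label reads placebo, and the titles were used to assign them.

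Platelets are cell fragments without a nucleus that keep some of the messenger RNA of the megakaryocyte. At a site of vessel injury, the GPIb-IX-V complex binds von Willebrand factor and slows the platelet, GPVI binds exposed collagen and signals inward, and the integrin αIIbβ3 then binds fibrinogen and links platelets to each other. Activated platelets empty their α-granules, whose most abundant proteins include the chemokines encoded by Pf4 (platelet factor 4, Cxcl4) and Ppbp (pro-platelet basic protein, Cxcl7). Several of these genes are also used outside the platelet lineage, since Itgb3 is expressed by vascular smooth muscle and endothelial cells and Pf4 by some tissue macrophages. Transcription factors of the GATA and ETS families drive megakaryocyte genes, and the estrogen receptor can bind DNA at the estrogen response element.

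Ppbp and Pf4 lie next to each other on chromosome 5, on the same strand. In GRCm38 coordinates, the build of the counts, Ppbp spans 90768518 to 90770063 and Pf4 spans 90772435 to 90773383. Promoter windows from RefSeq (GRCm38.p6), reaching from 250 bases before the annotated start to 50 after it, were held for 9 of the 10 genes, all but Itgb3. Both strands were searched for the GATA motif (any of the forms AGATAA as well as TGATAA, and further AGATAG as well as TGATAG), the ETS core (GGAAG) and the consensus estrogen response element. The stretches below are the 150 bases before the RefSeq start of the 3 genes called in the comparisons below, the neighbours Ppbp and Pf4 and Gp9, with each ETS core on either strand in capitals.
Ppbp: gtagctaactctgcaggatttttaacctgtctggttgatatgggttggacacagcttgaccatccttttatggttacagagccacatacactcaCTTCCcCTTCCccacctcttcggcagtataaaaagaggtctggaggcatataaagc
Pf4: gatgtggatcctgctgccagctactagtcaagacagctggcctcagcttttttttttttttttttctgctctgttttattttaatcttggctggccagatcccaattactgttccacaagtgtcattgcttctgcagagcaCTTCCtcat
Gp9: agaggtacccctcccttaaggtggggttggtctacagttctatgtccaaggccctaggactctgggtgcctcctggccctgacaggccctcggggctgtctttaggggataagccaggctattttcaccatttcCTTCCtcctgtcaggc

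These stretches are chr5:90768368-90768517 on the plus strand for Ppbp, chr5:90772285-90772434 on the plus strand for Pf4 and chr6:87777920-87778069 on the plus strand for Gp9. RefSeq starts can differ from those of the annotation used for the counts, and the Itga2b window lies mostly inside the gene as counted. The ETS core was present in all 9 windows, against 71.4% of the 32851 mouse promoter windows of the same length. A GATA motif was present in 5 of the 9 windows (Pf4, Gp1ba, Gp1bb, Gp5 and Gp6), against 29.8% of all windows. The estrogen response element was found in 0 of the 9 windows and in 0.07% of all windows. These matches describe the letters in the windows and do not show that a factor binds there.

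The number of counts per library ranged from 24647116 (E4 replicate C38) to 64221320, with a median of 45156037. Levels are given as CPM, a gene's counts relative to the library total on the usual scale, with that total adjusted by edgeR's TMM method. In OVX C5 and TAM C35, a list of 10 sympathetic ganglion markers summed to 40.0 and 229 CPM, against 2340 to 8665 CPM in the other 22 libraries. Values without these 2 libraries, a choice made after seeing the data, are given for Ppbp, Pf4, Itgb3 and Gp1bb. The labels name the tissue carotid artery, and the defining smooth muscle markers (Myh11, Acta2, Tagln and 7 others) summed to 2724 to 9593 CPM over the 24 libraries, and no list of markers had a gene at 0 in all libraries. P-values of the edgeR test set a difference between groups against the spread between libraries within groups, estimated over all 4 groups together.

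The 10 genes were read at very different levels. Per kilobase of exon, Pf4 was highest with a mean of 33.2 CPM per kilobase over the 24 libraries, followed by Itgb3 with 14.1 and Gp1bb with 6.84. Then came Ppbp with 1.31, Itga2b with 0.962 and Gp1ba with 0.92 CPM per kilobase. Itga2b and Gp1ba did not differ beyond their spread, at 0.986 ± 0.187 and 0.819 ± 0.169 CPM per kilobase in OVX mice (SD, n = 6), and their order was reversed in E4 mice at 0.914 ± 0.101 and 1.03 ± 0.168. The lowest levels belonged to Gp9 with 0.493, Treml1 with 0.142, Gp5 with 0.0669 and Gp6 with 0.0235 CPM per kilobase. Gp5 and Gp6 were removed by the filter on low counts, so 8 of the 10 genes were among the 25033 genes tested. A filter of this kind keeps a low gene more readily when it is high in a group, and Gp9 and Treml1, whose counts reached no more than 47 and 19 in any library, passed it.

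E2 mice had the highest group mean in 7 of the 10 genes (Ppbp, Pf4, Itga2b, Gp9, Gp5, Gp6 and Treml1), and E4 mice had the lowest in 7 (Ppbp, Pf4, Itgb3, Gp9, Gp5, Gp6 and Treml1). These are orders of means over all 10 genes, and most of the differences behind them did not pass the test, as given gene by gene below. The share of all genes with the same order is not given here, so whether these counts are unusual was not tested.

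**Figure D1:**
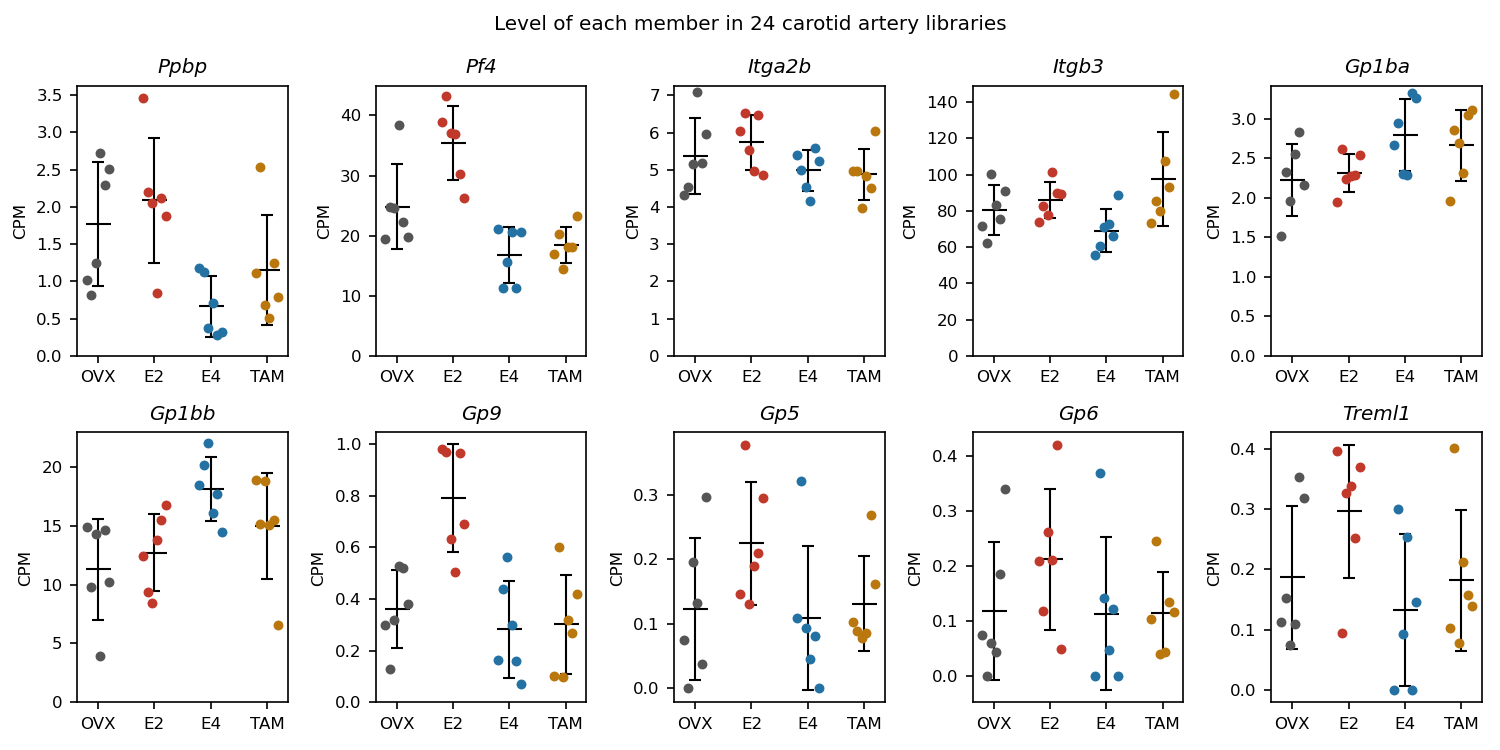
CPM of each of the 10 genes (y axes) in the 4 groups, with 1 point per library, a horizontal bar for the group mean and whiskers for the SD (n = 6). The 6 E2 points of Pf4 lie above all E4 and TAM points, and E2 points are highest on average in Gp9, while Gp1bb shows the lowest OVX and TAM points standing apart from their groups.

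The chemokine gene Ppbp was lower in E4 mice than in OVX mice. Its level in OVX mice ran from 0.817 through a median of 1.78 to 2.72 CPM. In E4 mice it ran from 0.284 through 0.546 to 1.18 CPM. The groups overlapped, with the OVX libraries C2 and C3 inside the range of the E4 group, and 3 E4 libraries were below 0.4 CPM. The fitted log2 fold change was -1.39 (SE 0.43), a level 2.61-fold lower, with an adjusted p of 0.0251 (edgeR quasi-likelihood test, Benjamini-Hochberg over 25033 genes). Calls required this p to be under 0.05 and the log2 fold change to be above 1 or below -1. In injured carotid arteries, a condition not sequenced here, the study reported no regulation of Ppbp mRNA by E4.

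Ppbp was the single gene of the 8 tested that was called in E4 against OVX, where 2.51% of all genes tested were called and 1.69% were called with lower expression. The call was lost without OVX C5 (adjusted p = 0.0605), E4 C20 (0.0631), E4 C38 (0.0518) or E4 C39 (0.0526), with log2 fold changes between -1.21 and -1.26. Without both OVX C5 and TAM C35 the log2 fold change was -1.21 and the adjusted p 0.0485. The animal numbers of each group formed 2 separate series, and no source used here says whether these were batches. Within the first series (4 OVX and 3 E4 libraries) the log2 fold change of Ppbp was -0.70, and within the second (2 and 3 libraries) it was -2.39, neither of which passed the test (adjusted p = 0.388 and 0.156).

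Against E2 mice, in which Ppbp ran from 0.844 through 2.08 to 3.46 CPM, the level in E4 mice was lower as well. E2 C26 was the lowest E2 library and the only E2 library inside the E4 range. The log2 fold change of E4 against E2 was -1.63 (SE 0.43, adjusted p = 0.0174). It kept its direction within both number series, at -1.53 and -1.81, without passing the test in either (adjusted p = 0.0932 and 0.393). The 2 comparisons of E4 share the E4 libraries, so they are not independent of each other.

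In TAM mice Ppbp ran from 0.511 through 0.954 to 2.54 CPM, between the medians of E4 and E2 mice. TAM C12 was the highest TAM library, and the other 5 did not exceed 1.25 CPM. The log2 fold changes were -0.62 (SE 0.41, adjusted p = 0.399) against OVX, -0.86 (SE 0.41, adjusted p = 0.226) against E2 and 0.76 (SE 0.43, adjusted p = 0.636) against E4, and none passed the test. Without OVX C5 and TAM C35, the value against OVX was -0.37 (adjusted p = 0.638). E2 and OVX mice were not told apart either, with a log2 fold change of 0.24 (SE 0.40, adjusted p = 0.879), and the interval of 2 SE around it ran from -0.56 to 1.04. It was 0.40 (adjusted p = 0.626) without OVX C5 and TAM C35.

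Pf4, the neighbour of Ppbp and the most highly expressed of the 10 genes per length, separated E2 mice from E4 mice. Its level ran from 26.3 through 37.0 to 43.3 CPM in E2 mice. In E4 mice it ran from 11.3 through 18.1 to 21.03 CPM, so that every E2 library lay above every E4 library. The log2 fold change of E4 against E2 was -1.08 (SE 0.18, adjusted p = 0.00066), a level 2.12-fold lower. Groups did not overlap in 6.17% of all genes tested in this comparison. The fold change was -1.32 within the first number series and -0.81 within the second, and the test was passed in the first (adjusted p = 0.0126) and not in the second (0.415). Without E4 C19 or E4 C38 the log2 fold change was -0.99, just inside the fold threshold, with adjusted p of 0.00243 and 0.00226 in edgeR's test.

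TAM mice also had less Pf4 than E2 mice, with levels from 14.4 through 18.1 to 23.3 CPM, and the 2 groups did not overlap. The log2 fold change was -0.94 (SE 0.18, adjusted p = 0.00213), which passed the adjusted p and not the fold threshold. It passed both without E2 C29 or TAM C35 (log2 fold change -1.01 in each fit). Groups did not overlap in 4.24% of all genes in this comparison. Within the first and second number series the log2 fold change was -1.22 (adjusted p = 0.0266) and -0.64 (0.278). E4 and TAM mice did not differ detectably in Pf4, with a log2 fold change of TAM against E4 of 0.14 (SE 0.18, adjusted p = 0.853) and an interval of 2 SE from -0.22 to 0.51.

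OVX mice lay between, with Pf4 from 19.4 through 23.4 to 38.4 CPM, and the highest value belonged to OVX C5, while the other 5 libraries did not exceed 24.8 CPM. In E4 against OVX, where 22.0% of all genes tested had an adjusted p under 0.05, Pf4 had a log2 fold change of -0.57 (SE 0.18, adjusted p = 0.0291). This p rose above 0.05 without OVX C3 (0.055), OVX C5 (0.106), E4 C19 (0.0734), E4 C20 (0.0619) or E4 C38 (0.0671). With 2 groups in the fit it was 0.0715, with a log2 fold change of -0.56. In E2 against OVX the log2 fold change was 0.51 (SE 0.18, adjusted p = 0.121). Without OVX C5, which is also among the 2 libraries low in ganglion markers, it was 0.68 with an adjusted p of 0.0158. In TAM against OVX it was -0.42 (SE 0.18, adjusted p = 0.183). Without both OVX C5 and TAM C35 the values were 0.68 (adjusted p = 0.00797) in E2, -0.39 (0.0735) in E4 and -0.33 (0.234) in TAM against OVX.

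Gp9 encodes GPIX, the small subunit that the GPIb-IX-V complex needs to reach the platelet surface. In E2 mice its level ran from 0.506 through 0.827 to 0.981 CPM. The range was 0.128 through 0.35 to 0.527 CPM in OVX mice and 0.073 through 0.232 to 0.563 CPM in E4 mice. In TAM mice Gp9 ran from 0.0983 through 0.294 to 0.602 CPM. Every group overlapped the E2 group by its highest libraries, and the values rest on 3 to 47 counts per library.

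Gp9 was lower in E4 than in E2 mice, with a log2 fold change of -1.44 (SE 0.42, adjusted p = 0.0294). It was also lower in TAM than in E2 mice, with a log2 fold change of -1.40 (SE 0.41, adjusted p = 0.0437). In E2 against OVX the log2 fold change was 1.11 (SE 0.40), and the test was not passed (adjusted p = 0.139). The log2 fold changes of E4 and TAM against OVX were -0.33 (SE 0.44, adjusted p = 0.613) and -0.29 (SE 0.43, adjusted p = 0.738).

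These calls of Gp9 depended on single libraries. In E4 against E2 the call was lost without E2 C6, E2 C8, E4 C16, E4 C36, E4 C38 or E4 C39, with adjusted p from 0.051 to 0.0698. The call between TAM and E2 mice was lost in 11 of the 24 fits that leave out a library (OVX C4 and C25, E2 C6, C8, C9 and C27, TAM C11, C13, C32 and C33, and E4 C36), with adjusted p from 0.0505 to 0.0981. In these fits the log2 fold change lay between -1.46 and -1.21. Within the first and second number series it was -1.13 and -1.96 in E4 against E2 and -1.73 and -1.08 in TAM against E2, with adjusted p from 0.128 to 0.318.

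In E4 against E2, 3 of the 8 genes tested were called, Ppbp, Pf4 and Gp9, and all 3 were lower, where 2.47% of all genes tested were called and 2.25% were called lower. The median log2 fold change of the 8 genes was -0.69, and that of all genes tested was -0.01. The 8 include Treml1 and Gp9, low genes with their highest mean in E2 mice, and Gp1bb, whose counts are uncertain. Medians and counts of direction over the 8 are therefore given as a description only. In TAM against E2, Gp9 was the 1 gene called, where 1.65% of all genes were called and 1.39% were called lower, and the median was -0.47 beside 0.00 for all genes. In E2 against OVX, 0 of the 8 genes were called with edgeR and 0 with DESeq2 (1.27% of all genes were called with edgeR), 2 had an unadjusted p under 0.05 (Pf4 and Gp9), and all 8 log2 fold changes were above 0 with a median of 0.21. Adjusted p alone was under 0.05 in 4.16%, 22.0%, 2.21%, 12.5%, 6.44% and 0.340% of all genes in E2, E4 and TAM against OVX, E4 and TAM against E2 and TAM against E4, and in 0, 2, 0, 3, 2 and 0 of the 8 genes. The groups did not overlap in 2.83%, 9.37%, 2.58%, 6.17%, 4.24% and 0.927% of all genes in the same order, and in 0, 0, 0, 1, 1 and 0 of the 8. In TAM against OVX (0.308% of all genes called) and TAM against E4 (0.196% of all genes called) 0 of the 8 were called by either tool, and 1 gene in each had an unadjusted p under 0.05, Pf4 and Itgb3 respectively.

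**Figure D2:**
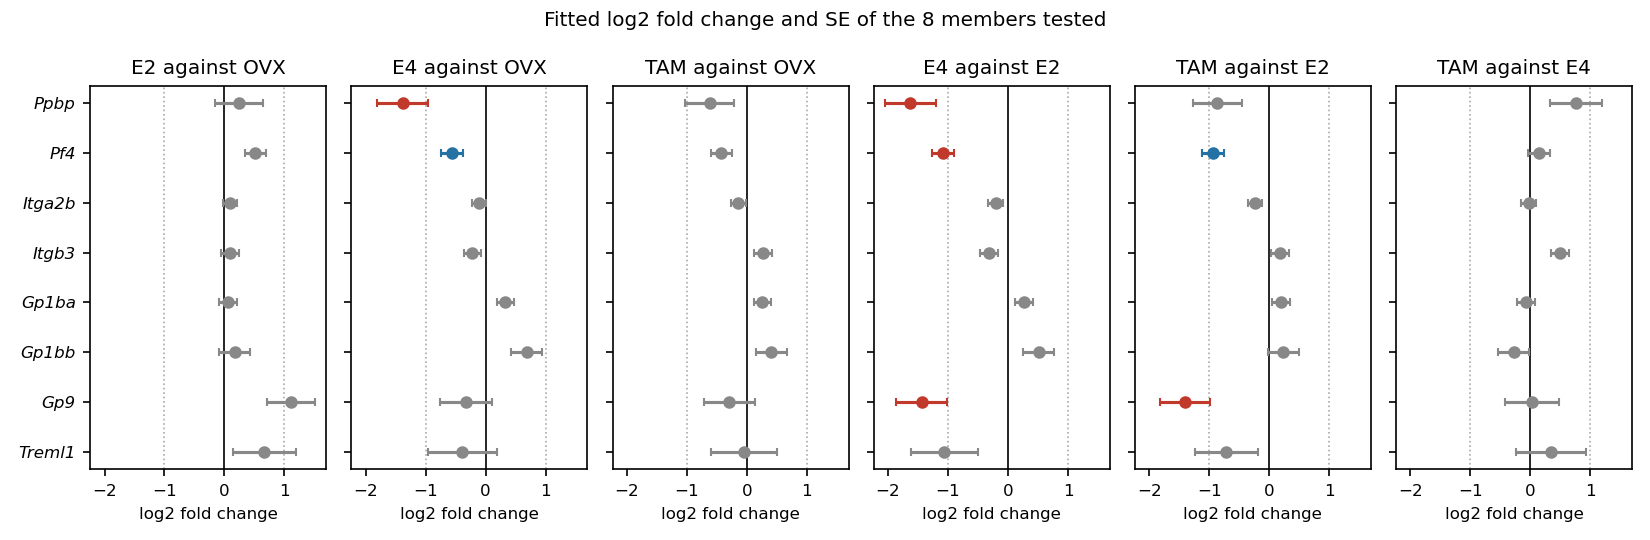
Fitted log2 fold change (x axes) with its SE for the 8 genes tested (rows) in the 6 comparisons (panels). Red marks genes called, blue an adjusted p under 0.05 inside the fold threshold, grey the rest, and dotted lines the fold threshold. Red points lie to the left of 0 in the panels E4 against OVX (Ppbp), E4 against E2 (Ppbp, Pf4 and Gp9) and TAM against E2 (Gp9).

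The other subunits of the GPIb-IX-V complex passed the test in no comparison or were too low for it. Gp1ba encodes GPIbα, the chain that binds von Willebrand factor. It ran from 1.52 through 2.25 to 2.84 CPM in OVX mice, 1.94 through 2.28 to 2.62 in E2 mice, 2.29 through 2.81 to 3.32 in E4 mice and 1.96 through 2.77 to 3.11 in TAM mice. Its largest log2 fold change, in E4 against OVX, was 0.33 (SE 0.15, adjusted p = 0.106), and the groups overlapped in every comparison.

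Gp5 encodes GPV, which associates with the complex, and Gp6 encodes GPVI. Gp5 had the same order of extremes as Gp9, highest in E2 and lowest in E4 mice. Its mean was 0.225 ± 0.0949 CPM in E2 mice and 0.109 ± 0.112 to 0.131 ± 0.0739 CPM in the other groups (SD, n = 6). Gp6 had a mean of 0.211 ± 0.127 CPM in E2 mice and of 0.113 ± 0.139 to 0.117 ± 0.125 CPM in the others. Both were at 0 counts in OVX C3 and E4 C39, and Gp6 also in E4 C16. A count of 0 allows up to 3 counts, or 0.0766 CPM in OVX C3, 0.073 in E4 C39 and 0.0824 in E4 C16. Neither gene exceeded 20 counts in any library. In two-sided exact permutation tests of the 6 comparisons of each gene, the smallest p was 0.0844 for Gp5 (E4 against E2) and 0.136 for Gp6 (TAM against E2), and all adjusted values over the 12 tests were 0.409 or higher.

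Treml1 encodes TLT-1, a receptor stored in platelet α-granules and brought to the surface on activation. It ran from 0.0945 through 0.332 to 0.397 CPM in E2 mice. The ranges were 0.0754 through 0.133 to 0.352 CPM in OVX mice, 0 through 0.12 to 0.3 in E4 mice and 0.0787 through 0.148 to 0.401 in TAM mice, so all groups overlapped. The log2 fold change in E4 against E2 was -1.06 (SE 0.56, adjusted p = 0.204), and its interval of 2 SE ran from -2.17 to 0.05. That interval holds both 0 and the log2 fold change of Ppbp in the same comparison.

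Neither gene of the integrin αIIbβ3 passed the test in any comparison. Itga2b, which encodes the αIIb chain found on megakaryocytes and platelets, ran from 4.31 through 5.17 to 7.1 CPM in OVX mice and from 4.86 through 5.79 to 6.52 in E2 mice. It ran from 4.16 through 5.12 to 5.59 CPM in E4 mice and from 3.97 through 4.9 to 6.06 in TAM mice. The lowest adjusted p over the 6 comparisons was 0.264, in E4 against E2, where the log2 fold change was -0.20 (SE 0.12) with an interval of 2 SE from -0.45 to 0.04. The fold changes of Ppbp, Pf4 and Gp9 in that comparison lay outside this interval, although the difference between genes was not tested.

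Itgb3 encodes the β3 chain, which pairs with αIIb in platelets and with αV in other cells. Its level was 62.0 through 79.3 to 100.1 CPM in OVX mice and 73.7 through 86.0 to 101.5 in E2 mice. In E4 mice it was 55.5 through 68.6 to 88.9 CPM, and in TAM mice 73.2 through 89.3 to 144.4 CPM, where TAM C35 was highest. The largest log2 fold change was 0.49 in TAM against E4 (SE 0.15, adjusted p = 0.21), and it was 0.34 (adjusted p = 0.475) without OVX C5 and TAM C35. Itgb3 and Itga2b, though they encode the chains of 1 receptor, were read at 14.1 and 0.962 CPM per kilobase.

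Marker lists of other cell types moved with several of these results. In E2 against OVX, 9 of 10 macrophage markers had a higher level at an adjusted p under 0.05 and none a lower level, and in E4 against E2 and in TAM against E2 9 of 10 had a lower level. The summed level of these markers was 368 to 660.2 CPM in OVX, 688 to 931 in E2, 295 to 548 in E4 and 394 to 466 in TAM libraries. A list of 8 markers of resident perivascular macrophages (Lyve1, Folr2, Cbr2 and 5 others) ran from 378 to 618 CPM in OVX, 965 to 1259 in E2, 447 to 887 in E4 and 416 to 676 in TAM libraries, and it shares Mrc1 and Cd163 with the macrophage list. Of its 8 genes, 3 were called higher in E2 against OVX, 5 lower in E4 against E2 and 6 lower in TAM against E2. In a bulk sample, fewer cells of a type and less RNA per cell cannot be told apart.

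Pf4 followed these lists, and others, from library to library. After removal of the group means, Pf4 and the resident perivascular macrophage list correlated with Pearson's r = 0.90 and Spearman's rho = 0.89 over the 24 libraries (permutation within groups, p = 1e-05 for each, the smallest the 100000 permutations can give, adjusted over 12 relations 3e-05 and 4e-05). Without the 2 libraries farthest from the median of the list (OVX C5 and E4 C39), r was 0.88. With the macrophage list, r was 0.82 and rho 0.81 (permutation p = 6e-05 and 0.00015, adjusted 0.00012 and 0.0003), and r was 0.79 without E4 C39 and E4 C38. With a list of 8 fibroblast markers r was 0.86 and rho 0.84 (permutation p = 1e-05 and 5e-05, adjusted 3e-05 and 0.00012), and r was 0.82 without TAM C35 and OVX C5. With the smooth muscle list r was 0.56 and rho 0.50 (permutation p = 0.00288 and 0.0222, adjusted 0.00384 and 0.0295), and r was 0.52 without TAM C35 and OVX C2. Outside the 12 relations tested, r was 0.72 with the further platelet and megakaryocyte genes described below, which include F13a1. It was -0.65 with the sympathetic ganglion list. The 12 relations are a part of all pairs of gene and list, and their adjusted p does not cover that choice. The 5 genes whose level was most like that of Pf4 over the 24 libraries, among 19528 genes of at least 1 CPM, were F13a1 (r = 0.94), Cfp (0.94), Tyrobp (0.93), Pld4 (0.93) and Lyz2 (0.93). Tyrobp encodes a signalling adaptor of myeloid cells, Lyz2 the lysozyme of macrophages and neutrophils and Cfp the complement factor properdin.

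With the resident perivascular macrophage list as a covariate, a fit added after seeing the data, the log2 fold change of Pf4 in E4 against E2 was 0.03 (adjusted p = 0.941). With the macrophage list it was 0.12 (adjusted p = 0.862). For TAM and E2 mice these values were 0.21 (adjusted p = 0.366) and 0.20 (adjusted p = 0.667). In E2 against OVX the direction turned, to -0.52 (adjusted p = 0.0188) with the perivascular and -0.57 (adjusted p = 0.229) with the macrophage list. In E4 against OVX the log2 fold change was -0.49 (adjusted p = 0.000646) and -0.45 (adjusted p = 0.00936). The lists differ between the same groups as Pf4 does, so a covariate fit cannot separate group from list, and the part of macrophage RNA in the Pf4 result was not tested further.

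For Ppbp, the neighbour of Pf4, no relation to Pf4 passed the test. The correlation of both genes was r = 0.20 and rho = 0.20 after removal of the group means (permutation p = 0.407 and 0.394, adjusted p = 0.407 and 0.394), and r was 0.21 without E2 C26 and TAM C12. The 5 genes most like Ppbp were Gm8602 (r = 0.67), Klf2 (0.65), Ifi207 (0.65), Gm8036 (0.64) and Ccn1 (0.63), and those most like Itga2b were Pde1a (r = 0.81), Pigf (0.80), Irs1 (0.80), Zscan29 (0.79) and Ctbs (0.79). These 15 genes were picked as the highest of 19528 correlations and are given as a description. Genes with a mean below 1 CPM, among them Gp9, Gp5, Gp6 and Treml1, were left out of that search. The r of Ppbp was 0.51 with Gp9, 0.40 with Gp5, 0.37 with Gp6 and 0.28 with Treml1, on few counts. It was 0.37 with Itga2b, 0.10 with Gp1ba, -0.12 with Gp1bb and -0.32 with Itgb3, and none of these was tested. With the macrophage list as a covariate the log2 fold change of Ppbp was -1.23 in E4 against OVX (adjusted p = 0.0542) and -0.68 in E4 against E2 (adjusted p = 0.798), so the direction was kept and the calls were lost. With the resident perivascular macrophage list it stayed called in E4 against OVX (-1.32, adjusted p = 0.0318) and not in E4 against E2 (-1.16, adjusted p = 0.382).

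**Figure D3:**
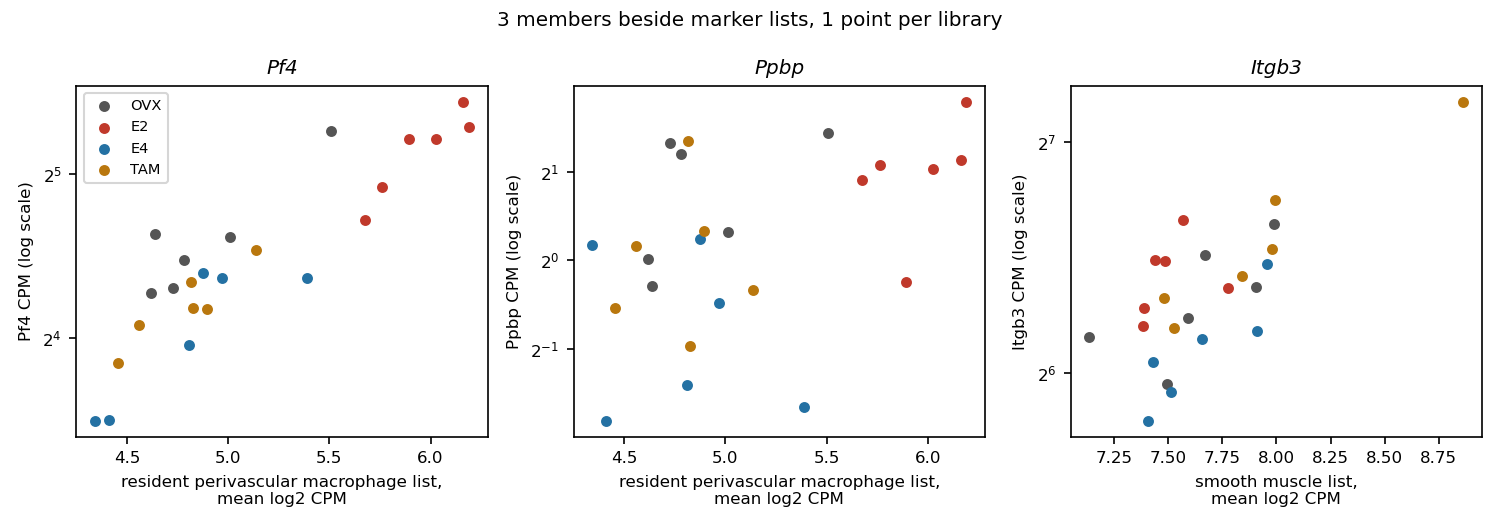
CPM of Pf4, Ppbp and Itgb3 (y axes, log scale with base 2) against the mean log2 CPM of a marker list (x axes), resident perivascular macrophage markers for Pf4 and Ppbp and smooth muscle markers for Itgb3, with 1 point per library coloured by group. Pf4 rises with the macrophage markers across all groups and the E2 libraries lie at the upper right, whereas the points of Ppbp scatter more widely, and TAM C35 is the highest point for Itgb3.

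Erythroid genes, a measure of blood in the sample, differed between groups too. Their summed level was 3388 to 28219 CPM in OVX, 4267 to 19970.1 in E2, 3746 to 7477 in E4 and 1900 to 5030.0 in TAM libraries. Of the 9 genes tested, 7 were called lower in TAM against OVX, 9 in TAM against E2 and 2 in E4 against E2, and 0 were called in E4 against OVX or E2 against OVX. With this list as a covariate, 0 of the 8 platelet genes were called in any comparison, and the log2 fold changes in E4 against E2 were -1.46 for Ppbp, -0.74 for Pf4 and -1.07 for Gp9 (adjusted p = 0.263, 0.103 and 0.448). Between TAM and E2 mice they were -0.55, -0.29 and -0.67 (adjusted p = 0.869, 0.833 and 0.845). In E4 against OVX the log2 fold change of Ppbp was -1.32 with this list (adjusted p = 0.0528) and -1.39 without it (0.0251). In TAM against E2, where all 9 erythroid genes were called, the group and the erythroid level cannot be told apart.

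Lists of white blood cell and fibroblast markers moved as well. Of 10 B cell markers, 8 were called lower in E4 against OVX, the comparison in which Ppbp was called, and they summed to 28.4 to 85.3 CPM in OVX and 18.6 to 29.3 CPM in E4 libraries. Of 10 neutrophil markers, 4 were called lower in E4 against E2, with sums of 11.3 to 79.2 CPM in E2 and 5.02 to 12.9 CPM in E4 libraries. All 10 T cell markers were called lower in E4 against E2, with sums of 8.38 to 486.5 CPM in E2 and 7.36 to 12.6 CPM in E4 libraries, but the medians were 13.7 and 9.75 CPM, and the highest sum was that of E2 C9 alone. Of 8 fibroblast markers, 5 were lower in E4 against OVX and 4 in E4 against E2 at an adjusted p under 0.05, with medians of -0.53 and -0.48 on the log2 scale and none past the fold threshold. They summed to 5993 to 9825 CPM in OVX, 8073 to 10485 in E2, 5066 to 8236 in E4 and 6472 to 9801 in TAM libraries. After removal of the group means, the neutrophil list correlated with Ppbp with r = 0.52 and rho = 0.46 (permutation p = 0.01 and 0.0316, adjusted 0.012 and 0.038) and with Pf4 with r = 0.59 and rho = 0.59 (permutation p = 0.00248 and 0.00266, adjusted 0.00372 and 0.00399). Without E2 C6 and OVX C5 r was 0.41 and 0.49. The r of Ppbp with the neutrophil list was its highest with any list. Most pairs of gene and list were not among the relations adjusted over, so the adjusted p does not cover that choice. The part of white blood cells and fibroblasts in the values of Ppbp, Pf4 and Gp9 was not tested further.

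Itgb3 moved with smooth muscle, endothelial and fibroblast markers. After removal of the group means, r was 0.83 and rho 0.86 with a list of 10 smooth muscle genes (permutation p = 5e-05 and 2e-05, adjusted 0.00012 and 6e-05), and r was 0.78 without TAM C35 and OVX C2. With the endothelial list r was 0.70 and rho 0.74 (permutation p = 0.00141 and 0.00027, adjusted 0.00242 and 0.000463), and r was 0.65 without TAM C35 and OVX C5. With the fibroblast list r was 0.55 and rho 0.46 (permutation p = 0.012 and 0.0395, adjusted 0.0131 and 0.0431), and r was 0.44 without the same libraries. TAM C35 had the highest Itgb3 and the highest smooth muscle level, 9593 CPM in sum. Of the 10 smooth muscle genes, 1 was called higher in TAM against OVX and 0 were called in TAM against E2 or TAM against E4.

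Gp1bb, which encodes GPIbβ, could not be read apart from its neighbour. It lies on chromosome 16 from 18620317 to 18622403 on the minus strand, and its exons overlap those of Sept5, a septin gene of nerve terminals and platelets, and of Gm49601, both on the same strand. The ratio of Gp1bb to Sept5 CPM lay between 0.218 and 0.261 in all 24 libraries. After removal of the group means the genes correlated with r = 0.995 and rho = 0.98 (permutation p = 1e-05 each, adjusted 3e-05 and 4e-05), and r was 0.991 without OVX C5 and TAM C35. Whether reads of 1 gene were counted for the other cannot be resolved from the deposited counts, so the values of Gp1bb are uncertain.

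Gp1bb ran from 3.93 through 12.2 to 14.9 CPM in OVX mice and from 14.4 through 18.1 to 22.0 in E4 mice. In E2 mice it ran from 8.47 through 13.1 to 16.7 CPM and in TAM mice from 6.54 through 15.3 to 18.8. OVX C5 and TAM C35, the libraries low in sympathetic ganglion markers, were the lowest of their groups. The log2 fold change in E4 against OVX was 0.68 (SE 0.26, adjusted p = 0.0594), and that of Sept5 was 0.63 (SE 0.26, adjusted p = 0.0765). Without OVX C5 and TAM C35 the log2 fold change of Gp1bb was 0.52 with an adjusted p of 0.0275. With the ganglion list as a covariate it was 0.29 (adjusted p = 0.0643). The adjusted p was also below 0.05 without OVX C2 (0.0413), OVX C24 (0.0485) or TAM C35 (0.0284), with the perivascular macrophage list (0.0194) and with DESeq2 (0.035). In E4 against E2 the log2 fold change of Gp1bb was 0.51 (SE 0.26, adjusted p = 0.182), and it was 0.52 (adjusted p = 0.0185) without OVX C5 and TAM C35, 0.31 (0.0407) with the ganglion list and 0.52 (0.0322) with 2 groups in the fit. The direction turned with the macrophage list, to -0.37 (adjusted p = 0.803), and with the perivascular macrophage list, to -0.70 (adjusted p = 0.241). Between E2 and OVX mice it was 0.17 (SE 0.26, adjusted p = 0.862), with the perivascular macrophage list 1.36 (adjusted p = 0.0147) and with the ganglion list -0.02 (adjusted p = 0.944). Over the 22 libraries left without OVX C5 and TAM C35, Gp1bb correlated with the ganglion list with r = 0.86.

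**Figure D4:**
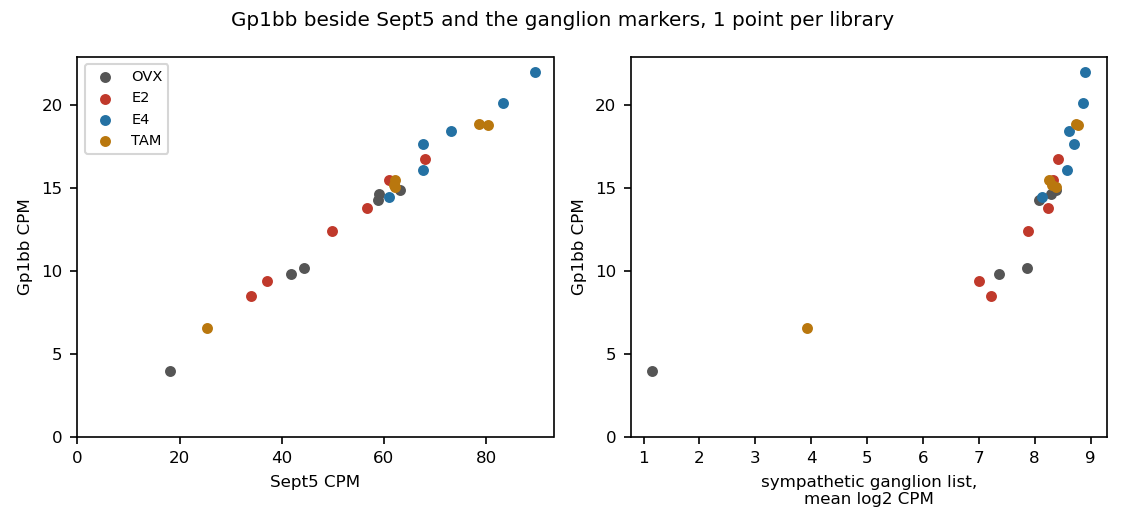
Gp1bb CPM (y axes) against Sept5 CPM (left) and against the mean log2 CPM of 10 sympathetic ganglion markers (right), with 1 point per library coloured by group. The points of Gp1bb and Sept5 fall on a line through all groups, and OVX C5 and TAM C35 are the lowest points in both panels.

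Of 41 further genes of platelet and megakaryocyte biology, 38 passed the filter on low counts, chosen, like the 10, with earlier results of these data known. In E4 against E2 (2.47% of all genes called), 7 were called lower and 0 higher, namely Cd226, Fcer1g, Lat, Lcp2, F13a1, Tbxas1 and Nfe2. In TAM against E2 (1.65% of all genes), 3 were called lower (Cd226, F13a1 and Tbxas1), and in E2 against OVX (1.27%) 3 were called higher (Cd226, Vwf and Tbxas1). In E4 against OVX (2.51%), Vwf and Zfpm1 were called higher, and in TAM against OVX and TAM against E4 0 were called. The median log2 fold changes of the 38 genes were 0.15 in E2 against OVX, -0.30 in E4 against OVX, -0.28 in E4 against E2 and -0.13 in TAM against E2, beside medians of all genes between -0.01 and 0.01. With the macrophage list as a covariate 0 of the 38 were called in E2 against OVX, E4 against E2 or TAM against E2. With the erythroid list 1, 3 and 0 were called in these comparisons, and within the second number series alone 1, 0 and 0. Exons of F13a1, Tbxas1, Ptgs1, Pear1, Lat, Lcp2 and Rasgrp2 overlap those of other genes, so their counts are uncertain. Gata1 and Gfi1b, transcription factors of the megakaryocyte and erythroid lineages, did not pass the filter.

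Among the granule proteins, F13a1 encodes the A subunit of coagulation factor XIII, which crosslinks fibrin and is also made by macrophages. It ran from 171.2 through 238.3 to 297.3 CPM in E2 mice and from 70.0 through 98.5 to 122.2 in E4 mice. The groups did not overlap, and the log2 fold change of F13a1 in E4 against E2 was -1.30 (SE 0.17, adjusted p = 7.56e-05). Between TAM and E2 mice it was -1.36 (SE 0.17, adjusted p = 2e-05), and -0.72 (adjusted p = 0.515) with the erythroid list as a covariate. With the macrophage list it was -0.21 (adjusted p = 0.753) in E4 and -0.34 (0.485) in TAM against E2, and with the perivascular macrophage list -0.29 (0.279) and -0.31 (0.191). The direction was kept and the calls were lost. F13a1 was also the gene most like Pf4, as given above.

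Vwf encodes von Willebrand factor, made by endothelial cells and megakaryocytes, and its pattern was another. It ran from 68.9 through 79.8 to 113.0 CPM in OVX mice, 179.3 through 188.6 to 280.7 in E2 mice and 165.8 through 192.5 to 294.2 in E4 mice. In TAM mice it ran from 123.6 through 152.2 to 244.6 CPM. All 3 treated groups lay above all OVX libraries, with log2 fold changes of Vwf of 1.22 (SE 0.19, adjusted p = 0.00017) for E2 and 1.27 (SE 0.19, adjusted p = 0.000216) for E4. In TAM against OVX it was 0.97 (SE 0.18, adjusted p = 0.011), inside the fold threshold, and in E4 against E2 0.06 (SE 0.18, adjusted p = 0.853). Of 10 endothelial markers, 0 were called in any of the 6 comparisons.

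Of the enzymes, Tbxas1 (thromboxane synthase) was higher in E2 than in OVX mice, with a log2 fold change of 1.08 (SE 0.13, adjusted p = 5.71e-06), and lower in E4 than in E2 mice (-1.24, SE 0.13, adjusted p = 1.77e-05). Ptgs1, the cyclooxygenase that aspirin blocks in platelets, was read at 36.7 ± 2.36 CPM in E2 and 31.5 ± 3.26 CPM in OVX mice (SD, n = 6), and its log2 fold change of 0.22 (SE 0.07) did not pass the test (adjusted p = 0.061). The log2 fold change of Tbxas1 between TAM and E2 mice was -1.23 (SE 0.13, adjusted p = 1.12e-06). Tbxas1 is also expressed by macrophages, and without E2 C8 its log2 fold change in E2 against OVX was 0.99, inside the fold threshold.

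Cd226, a receptor of platelets, T cells and natural killer cells, rose in E2 mice and was lower in E4 and TAM mice than in E2 mice. It ran from 0.588 through 1.61 to 2.0 CPM in OVX mice and from 2.24 through 3.38 to 4.73 in E2 mice. The log2 fold changes were 1.16 (SE 0.27, adjusted p = 0.0135) in E2 against OVX, -1.76 (SE 0.28, adjusted p = 0.000464) in E4 against E2 and -1.46 (SE 0.28, adjusted p = 0.00177) in TAM against E2. Without OVX C4 the first was 0.99 (adjusted p = 0.0253). Pear1, the receptor gene of the list with the highest mean CPM over the 24 libraries, was 36.7 ± 3.88 CPM in E2 and 48.8 ± 5.84 CPM in OVX mice, with a log2 fold change of -0.41 (SE 0.09, adjusted p = 0.0111) inside the fold threshold.

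The signalling genes Fcer1g (the Fc receptor γ chain, which pairs with GPVI), Lat and Lcp2 (adaptors below GPVI and the T cell receptor) were lower in E4 than in E2 mice. Their log2 fold changes were -1.19 (SE 0.15, adjusted p = 5.63e-05), -2.71 (SE 0.77, adjusted p = 0.0245) and -1.06 (SE 0.23, adjusted p = 0.00465). With the macrophage list as a covariate they were -0.20 (adjusted p = 0.743), -2.86 (0.56) and -0.29 (0.81). With the perivascular macrophage list they were -0.35 (0.216), -2.04 (0.398) and -0.32 (0.62), so the calls were lost. The part of macrophage RNA in these values was not tested. The value of Lat rests on E2 C9, which held 22.7 CPM, whereas the median of E2 mice was 1.09 CPM. In that library 10 T cell markers summed to 486.5 CPM, against 7.36 to 61.5 in the other 23 libraries, and without it the log2 fold change of Lat was -0.51 (adjusted p = 0.456) and that of Lcp2 -0.77 (adjusted p = 0.0122). The call of Lat was also lost without E4 C19 (adjusted p = 0.0551) or E4 C20 (0.051), and the log2 fold change of Lcp2 lay inside the fold threshold without E4 C19 (-0.97), E4 C20 (-0.99) or E4 C38 (-0.99). Rasgrp2, the signalling gene with the highest mean CPM over the 24 libraries and an activator of Rap1 in platelets, had a log2 fold change of -0.71 (SE 0.14, adjusted p = 0.00222) in E4 against OVX, inside the fold threshold.

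The transcription factor Nfe2, which megakaryocytes need to form platelets, was lower in E4 than in E2 mice, with a log2 fold change of -1.12 (SE 0.32, adjusted p = 0.0259). It had a mean of 0.284 ± 0.108 CPM in E4 and 0.637 ± 0.229 CPM in E2 mice (SD, n = 6). The call was lost without E2 C6 (log2 fold change -0.96, adjusted p = 0.0734), E2 C8 (-1.02, 0.0721), E4 C20 (-1.11, 0.054) or E4 C38 (-0.97, 0.0488). Zfpm1, which encodes the GATA1 partner FOG1, was higher in E4 than in OVX mice with a log2 fold change of 1.13 (SE 0.26, adjusted p = 0.00444). Its lowest values were 4.81 CPM in OVX C5 and 7.03 CPM in TAM C35, and without OVX C5 its log2 fold change was 0.995, just inside the threshold. Fli1, an ETS factor of megakaryocytes and endothelial cells and the factor gene with the highest mean CPM over the 24 libraries, though not in E4 mice, was 15.6 ± 2.67 CPM in E4 and 19.8 ± 2.9 CPM in E2 mice, and its log2 fold change of -0.34 (SE 0.15) did not pass the test (adjusted p = 0.119).

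Tubb1, the β1-tubulin of megakaryocytes and platelets, is a gene with little use in other cell types. It ran from 0.295 through 0.782 to 0.981 CPM in E2 mice and from 0.0487 through 0.34 to 0.486 in E4 mice, so the groups overlapped. Its log2 fold change in E4 against E2 was -1.29 (SE 0.53), and the test was not passed (adjusted p = 0.102).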

How the data were processed

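Total RNA was taken from carotid arteries, and libraries were made with a stranded mRNA kit and read in pairs on a NovaSeq. Gene-level estimated counts were deposited by the authors with no scaling, and 16.0% to 17.3% of the values carry decimals. The submitters' processing notes name bcl2fastq 2.17, Trim Galore, Bowtie2 and featureCounts, with mm10 as the build. The strand setting and counting options are not given in the sources used here, and reads of overlapping genes may be shared. Among values of 1 to 30 for the 10 genes, 61 were even and 29 odd, so low counts may not be single fragments.

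Values were rounded and fitted for all 24 libraries in edgeR 4.0.16 (TMM, filterByExpr, quasi-likelihood test, Benjamini-Hochberg over 25033 genes). Calls required an adjusted p under 0.05 with a log2 fold change above 1 or below -1, and SE is the absolute log2 fold change divided by the square root of F. DESeq2 1.42.0 was an alternative. Tested on simulated data for E2 against OVX with 25033 genes, of which 200 changed by 2 on the log2 scale, the fit recovered 99% of them. Gp5 and Gp6 were compared by exact two-sided permutation of CPM over 924 arrangements. Chi-square tests of the 60 replicate pairs gave no pair within sampling noise. The genes and lists were chosen with earlier results of these data known. Of 41 further platelet genes, those called in any comparison and the highest of each role were named.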

Additional observations from a re-analysis of the deposited data

Results flagged for a closer look

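For each gene and marker list, the gap between the highest or lowest library of a group and its nearest neighbour was divided by the range of the group. The ratio was above Dixon's 95% critical value in 8 of 84 groups, of which chance gives about 4.2. Ppbp in TAM C12 had a ratio of 0.634, with 2.54 CPM against 0.511 to 1.25 CPM in the other TAM libraries. Pf4 in OVX C5 had a ratio of 0.714, with 38.4 CPM against 19.4 to 24.8 CPM. Gp1bb was lowest in TAM C35, with a ratio of 0.693 and 6.54 CPM against 15.1 to 18.8 CPM. Gp5 in E4 C19 had a ratio of 0.660, with 0.323 CPM, or 14 counts, against 0 to 0.11 CPM.

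Marker lists, as mean log2 CPM, set OVX C5 and TAM C35 apart by this ratio and neither TAM C12 nor E4 C19. TAM C12 was still the highest TAM library for the erythroid and neutrophil lists and the further platelet genes. It was also the highest for Gp9, Gp6 and Treml1. The sympathetic ganglion list was lowest in OVX C5 (ratio 0.860, level 1.16 against 7.37 to 8.38) and in TAM C35 (ratio 0.891, level 3.93 against 8.25 to 8.78). The endothelial list was highest in OVX C5 (ratio 0.640, level 6.11 against 5.48 to 5.71). The smooth muscle list was highest in TAM C35 (ratio 0.629, level 8.86 against 7.48 to 7.99).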

How the results depend on the processing

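Of 1779 recomputed values, 1641 kept their call or, where not called, moved by less than 1 SE. Of the others, 83 uncalled values moved further, 48 lost a call with the direction kept, 5 gained a call and 2 reversed. Most of the 1779 belong to genes and comparisons without a call in the main fit, which had none to lose. The sign changed in 65, namely 26 of the 1641, 37 uncalled values that moved further and the 2 reversed values given below. In E4 against OVX, 0 genes were called in place of 1 with at least 10 counts in every library (5 of the genes tested), within the first or second number series, and with the macrophage, erythroid or ganglion list as a covariate, and 2 with no fold threshold. With these 3 lists the log2 fold change of Ppbp was -1.23, -1.32 and -1.25 (adjusted p = 0.0542, 0.0528 and 0.0523). In E4 against E2, 1 was called in place of 3 with at least 10 counts in every library and in the first number series, 2 with the ganglion list (Pf4 at -0.98), and 0 in the second series and with the macrophage, erythroid or perivascular list as a covariate. In TAM against E2, 0 were called in place of 1 with no filter, with at least 10 counts in every library, with 2 groups in the fit, in the second series and with those 3 lists, and 2 with no fold threshold or without OVX C5 and TAM C35. The 1 gene called there in the first series was Pf4 (-1.22, adjusted p = 0.0266) in place of Gp9 (adjusted p = 0.128). In E2 against OVX, 1 was called with the perivascular list (Gp1bb). The last list and the removal of 2 libraries were chosen after seeing the data. Pf4 in E4 against E2 reversed to 0.12 with the macrophage list and 0.026 with the perivascular list. Leaving out each library in turn gave 0 to 1 calls in E4 against OVX, 1 to 3 in E4 against E2, 0 to 2 in TAM against E2 and 0 in the other 3 comparisons. Apart from fits with fewer libraries or genes, the cause was not tested. No paired analysis was possible because every library carries its own animal number and no number is shared between groups. Ppbp, Gp9, Treml1, Gp5 and Gp6 rest on few counts, which limits their precision.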
